A study of Homo sapiens with 12 samples.

Results

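The genes described here are the histone genes counted in poly(A) RNA of the cell line MDA-MB-468. This established line derives from a basal-type breast cancer that lacks the oestrogen, progesterone and HER2 receptors. They were chosen by symbol in the count tables: every gene of the 4 replication-dependent clusters (symbols beginning HIST1H to HIST4H) and every gene named as a replacement variant (H2AF and H3F3 symbols, H1F0 and H1FX). That gave 86 of the 23228 counted genes, of which 72 were replication-dependent and 14 were replacement variants.

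Histones H2A, H2B, H3 and H4 form the nucleosome core, and the linker histone H1 binds where DNA enters and leaves it. Replication-dependent histone genes lie in clusters, are transcribed mainly in S phase, and give mRNAs that normally end in a short stem-loop instead of a poly(A) tail. The stem-loop binding protein SLBP holds that end and guides its cleavage and use. Replacement variants such as H2A.Z, H3.3 and H1.0 are expressed throughout the cell cycle from mRNAs with ordinary poly(A) tails. Selection for poly(A) therefore captures the 2 classes unequally, and some replication-dependent genes are known to give a polyadenylated transcript as well.

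The study set out to compare 2 inhibitors, alone and combined, with the solvent DMSO. Ipatasertib blocks the kinase AKT, and tazemetostat blocks EZH2, which methylates histone H3. Each drug was used at 5 µM, and each of the 4 groups holds 3 libraries lettered A, B and C. Exposure to tazemetostat (or solvent) began on day -5. Ipatasertib followed on day 0, when serum was lowered to 2%, and cells were harvested 24 h later. Whether the libraries of a group were grown apart is not stated in the labels, and the spread behind each p-value may therefore be technical. Fewer cells in S phase and less RNA per cell cannot be told apart in such bulk RNA.

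The stem-loop itself was searched in the GENCODE v29 transcript models (GRCh38) as a perfect stem of 6 base pairs that opens with GGC, around a loop of 4 bases that opens with TT. The forms below are shown because poly(A) selection should miss a transcript that ends at the stem-loop. A form in a model does not by itself show such an end. Of the 30 replication-dependent genes with a stem-loop, 20 also had a poly(A) signal near the end of a model. Capitals mark the paired stem and lower case the loop, given as DNA from 5′ to 3′.

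Stem-loop of 17 replication-dependent genes, HIST3H2A, HIST1H2AC and HIST2H2BE among them: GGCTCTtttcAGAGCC

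Stem-loop of 5 replication-dependent genes, HIST1H2BD, HIST1H2BC and HIST1H3G among them: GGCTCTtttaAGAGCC

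Stem-loop of 5 replication-dependent genes, HIST1H4H among them: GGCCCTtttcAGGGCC

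Stem-loop of 3 replication-dependent genes: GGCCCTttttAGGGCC

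Stem-loop of H2AFX: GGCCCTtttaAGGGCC

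A stem-loop was found for 30 of the 72 replication-dependent genes and for 1 of the 14 replacement variants, H2AFX, which encodes the DNA damage histone H2A.X. For 32 of the 42 replication-dependent genes without one, every model held the coding part alone (start codon to stop codon), so the search could not see their ends. The other 10 had longer models without this form, and 4 of the 10 ended in a poly(A) signal. An AATAAA or ATTAAA poly(A) signal stood in the last 50 bases of a model for 13 of the 14 replacement variants. It stood there for 24 of the 72 replication-dependent genes, and 20 of those 24 also had the stem-loop. In 21 replication-dependent genes a model ran more than 100 bases past the stem-loop, and 11 of these 21 averaged at least 1 CPM (counts per 1000000 counts in genes, on TMM-scaled totals). In 9 genes the models with a stem-loop ended within 100 bases of it, and 2 of the 9, HIST1H2BD and HIST1H2AE, reached that level. Of the 21 genes 4 had no read, and of the 9 genes 2, all of them near-identical copies whose reads could not be counted. CPM is not corrected for transcript length here. HIST1H2BD has another model without the stem-loop, and both of its models end in a poly(A) signal.

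The promoters of 4 genes are shown, for members whose RNA moved: HIST3H2A and HIST1H1C from the clusters, H2AFZ and H2AFX from the variants. Each is the 250 bases before the gene's start in RefSeq (GRCh38.p14), read 5′ to 3′ along the gene. Capitals mark CCAAT (the box bound by NF-Y) and TATAAA on either strand, so that ATTGG is CCAAT read from the other strand.

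HIST3H2A (chr1:228457874-228458123, minus strand): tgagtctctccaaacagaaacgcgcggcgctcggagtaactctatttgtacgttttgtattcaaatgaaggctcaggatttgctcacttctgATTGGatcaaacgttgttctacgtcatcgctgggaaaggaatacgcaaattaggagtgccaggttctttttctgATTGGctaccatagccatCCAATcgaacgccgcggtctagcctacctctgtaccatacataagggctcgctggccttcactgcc

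HIST1H1C (chr6:26056471-26056720, minus strand): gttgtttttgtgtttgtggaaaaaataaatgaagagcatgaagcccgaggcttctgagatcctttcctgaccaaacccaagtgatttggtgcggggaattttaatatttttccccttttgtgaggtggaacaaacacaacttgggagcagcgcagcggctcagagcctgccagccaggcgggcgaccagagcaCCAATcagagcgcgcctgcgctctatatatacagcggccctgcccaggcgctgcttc

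H2AFZ (chr4:99950276-99950525, minus strand): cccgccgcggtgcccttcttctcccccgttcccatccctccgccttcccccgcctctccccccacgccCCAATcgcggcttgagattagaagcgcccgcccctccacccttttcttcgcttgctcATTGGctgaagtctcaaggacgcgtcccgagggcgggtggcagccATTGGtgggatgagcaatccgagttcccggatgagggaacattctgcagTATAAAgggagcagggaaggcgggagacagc

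H2AFX (chr11:119095466-119095715, minus strand): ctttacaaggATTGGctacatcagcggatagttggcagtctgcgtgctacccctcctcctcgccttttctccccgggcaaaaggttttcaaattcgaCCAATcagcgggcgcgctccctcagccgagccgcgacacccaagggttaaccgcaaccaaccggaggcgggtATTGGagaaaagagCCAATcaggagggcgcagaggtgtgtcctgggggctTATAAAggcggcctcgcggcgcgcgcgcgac

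RefSeq promoters were matched for 73 of the 86 genes. CCAAT stood on either strand in 51 of 61 replication-dependent promoters (83.6%) and in 9 of 12 replacement variant promoters (75%), against 32% of the 35116 promoters of the table. TATAAA stood in 40 of 61 (65.6%) and in 4 of 12 (33.3%), against 10.7% of all. H2AFX carried 4 CCAAT and 1 TATAAA, H2AFZ carried 3 and 1, HIST3H2A 3 and 0, and HIST1H1C 1 and 0. A match describes letters in a window and shows no binding.

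Genes took 12981622 to 28746965 counts per library, so 3 counts correspond to 0.106 to 0.228 CPM, and the combination libraries were the shallowest. Reads placed in no counted feature made up 18.2% to 21.0% of the total with DMSO, 22.3% to 24.3% with ipatasertib, 19.8% to 23.0% with tazemetostat and 24.3% to 26.2% with both. In every group the A library stood apart, with a chi-square per degree of freedom of 4.36 to 15.5 against B or C and 2.41 to 3.62 between B and C. Markers of the line were high (EGFR, KRT8, KRT18 and KRT5 averaged over 1000 CPM), and the oestrogen and progesterone receptor genes were at 1.63 and 0.0153 CPM. KRT6A was near 0. Of 17 markers of fibroblasts, leukocytes and endothelium, CD14, KDR and COL1A1 were above 5 CPM and the defining PTPRC, CD3E, PECAM1 and COL1A2 were at or below 0.228 CPM. The summed leukocyte markers, nearly all CD14, were at 75.5 to 97.6 CPM without tazemetostat and 53.3 to 68.4 CPM with it. The endothelial sum was at 20.5 to 20.9 CPM with DMSO, 30.05 to 31.5 CPM with ipatasertib, 13.2 to 16.2 CPM with tazemetostat and 21.99 to 24.0 CPM with both. The fibroblast sum was at 9.72 to 11.7, 5.23 to 5.53, 15.7 to 19.3 and 9.48 to 11.4 CPM in the same order. The part of these markers, of library A and of reads outside genes in the results below was not tested.

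The replacement variants supplied most histone reads. Replication-dependent genes took 5.55% to 5.89% of histone CPM with DMSO, 7.48% to 7.60% with ipatasertib, 6.67% to 6.93% with tazemetostat and 7.72% to 8.10% with both, so that no treated library overlapped the DMSO range. All histone genes together took 0.397% to 0.410% of gene counts with DMSO and 0.323% to 0.340% with ipatasertib. The tazemetostat range was 0.387% to 0.398% and the combination range 0.345% to 0.355%.

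Of the 72 replication-dependent genes, 43 had enough counts to be tested, 20 had reads but were not tested (at most 88 counts over all 12 libraries), and 9 had no read. HIST1H2AA, HIST1H2BA and HIST1H4F had no read although they share no stretch of 50 bases with another gene. The other 6 genes at 0 were the pairs HIST2H2AA3 and HIST2H2AA4, HIST2H3A and HIST2H3C, and HIST2H4A and HIST2H4B. Each of these shares over 90% of its 50-base stretches with other genes, its copy most of all. Reads placed at more than 1 site, 10.1% to 12.6% of each library, were kept apart from the gene counts. These 6 genes are therefore listed at 0 and not shown to be silent. Of the 14 replacement variants 10 were tested and 4 were listed at 0. Those 4 were the near-identical H2AFB1, H2AFB2 and H2AFB3, and H3F3A, one of the genes of histone H3.3, which shares 11.7% of its 50-base stretches. H3F3A too is listed at 0 without being shown to be silent, and the sums over replacement variants do not hold it.

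Few genes carried the replication-dependent signal. HIST1H2BK took 34.9% of their summed CPM, HIST1H1C 14.4%, HIST1H2BD 12.7%, HIST1H2AC 7.96%, HIST3H2A 5.07% and HIST2H2BE 2.42%, together 77.4%. Those values are shares of counts and are not corrected for transcript length. HIST1H2BK shares 74.1% of its 50-base stretches with other genes, H2BFS most of all, so its counts are uncertain. A total of 48 of the 72 genes stayed under 1 CPM on average, 19 lay between 1 and 10 CPM, and 5 exceeded 10 CPM. Neighbours that start head to head (13 pairs) ranged from similar to far apart. HIST1H3J averaged 1.44 CPM and HIST1H2BO, 357 bases away, 1.47 CPM, while HIST1H2BK averaged 89.4 CPM and HIST1H2AH, which starts 331 bases away, 0.152 CPM. HIST3H2A averaged 12.97 CPM and HIST3H2BB, 234 bases away, 0.342 CPM.

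The 2 classes moved in opposite directions in sum. Replication-dependent genes summed to 226, 244 and 237 CPM in DMSO libraries A, B and C, to 239, 257 and 259 CPM with ipatasertib, to 264.5, 261 and 259 CPM with tazemetostat, and to 282, 267 and 276 CPM with both. The ipatasertib range overlapped that of DMSO, and the other 2 ranges lay above it. Replacement variants summed to 3827, 3898 and 4041 CPM with DMSO, 2956, 3144 and 3153 CPM with ipatasertib, 3704, 3505 and 3609 CPM with tazemetostat, and 3246, 3192 and 3131 CPM with both. All 9 treated libraries lay below the DMSO range. Relative to the DMSO mean the replication-dependent sum was 1.07 with ipatasertib, 1.11 with tazemetostat and 1.17 with both, and the replacement variant sum was 0.786, 0.919 and 0.813. Without HIST1H2BK the replication-dependent ratios were 1.08, 1.18 and 1.28. Without the 5 genes known to be polyadenylated (HIST1H1C, HIST1H2AC, HIST1H2BD, HIST1H2BK and HIST2H2BE) they were 1.12, 1.06 and 1.12. The sums of the remaining 67 genes were 63.1 to 71.0 CPM with DMSO and 71.2 to 76.8 with ipatasertib. They were 64.8 to 74.1 CPM with tazemetostat and 69.85 to 76.2 with both. For these genes only the ipatasertib range lay above DMSO, and the tazemetostat and combination ranges overlapped it. No p is given for sums over the members. A set of 19 RNAs without a poly(A) tail was chosen as a measure of carry-over through the selection. It summed to 24.4 to 30.3 CPM with DMSO, 26.2 to 27.1 with ipatasertib and 19.6 to 25.7 with tazemetostat. It was at 46.1, 29.4 and 29.8 CPM in combination libraries A, B and C, and its part in the sums was not tested.

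**Figure D1:**
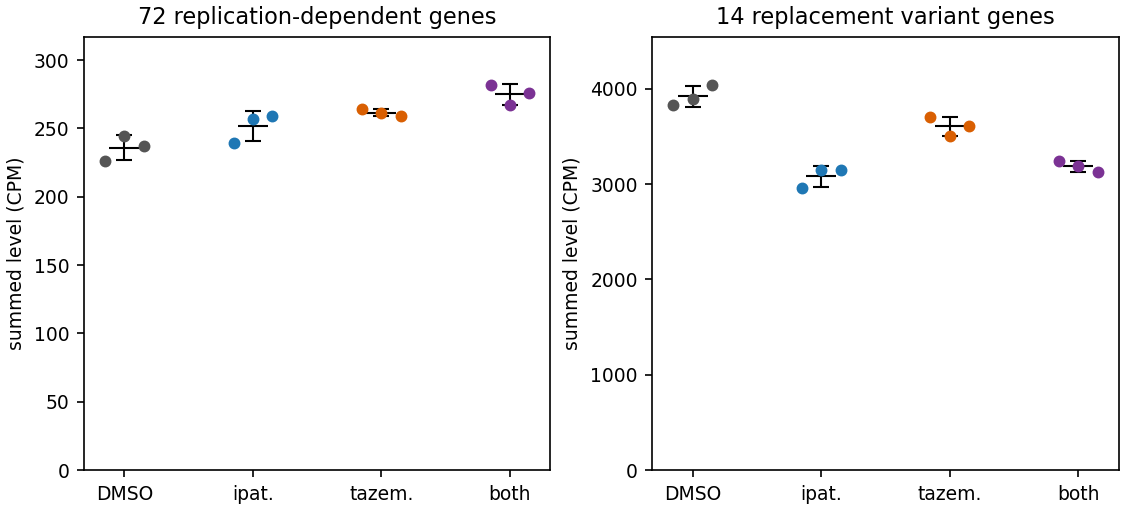
Summed level in CPM (vertical axis, from 0) of the 72 replication-dependent genes (left) and the 14 replacement variant genes (right) in the 4 treatment groups. Points are libraries A, B and C from left to right, and bars give mean and SD (n = 3). The replication-dependent sum is lowest in DMSO and highest with both drugs, and the replacement variant sum is highest in DMSO.

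The classes of replication-dependent histone did not share a direction. Mean sums of H1, H2A, H2B and H3 genes were above DMSO with every treatment, and those of H4 genes were below it. The sum over H1 genes went from 28.9 to 34.9 CPM with DMSO to 34.0 to 36.8 with ipatasertib, 41.8 to 43.8 with tazemetostat and 44.5 to 52.1 with both. H2A genes went from 32.3 to 35.2 CPM to 44.0 to 49.0, 40.2 to 43.0 and 46.9 to 55.5. H2B genes, with HIST1H2BK as their largest contributor, stayed between 135 and 157 CPM. H3 genes were at 9.45 to 10.5 CPM with DMSO, 10.3 to 11.5 with ipatasertib, 10.1 to 12.3 with tazemetostat and 11.25 to 13.5 with both. Only the combination range of H3 lay above DMSO. H4 genes were at 16.4 to 17.8 CPM with DMSO, 11.95 to 14.8 with ipatasertib, 13.6 to 17.3 with tazemetostat and 8.72 to 12.7 with both.

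Each gene was tested with edgeR's quasi-likelihood test with Benjamini-Hochberg adjustment over 14571 genes, and a gene is said to rise or fall where its adjusted p was under 0.05. The 3 comparisons against DMSO share the same control libraries. With ipatasertib 47.1% of all tested genes changed, 24% upward and 23.1% downward. Among the histone genes, 10 of 10 tested replacement variants fell (median log2 change -0.27), and 6 of 43 tested replication-dependent genes rose while 4 fell (median 0.09). The median over all genes was 0.00. With tazemetostat 47.2% of all tested genes changed, 25.9% upward and 21.3% downward. There 1 replacement variant rose and 5 of 10 fell (median -0.14), and 6 replication-dependent genes rose while 1 fell (median 0.18, against 0.01 over all genes). With both drugs 64.4% changed, 34.4% upward and 30% downward. There 0 replacement variants rose and 8 of 10 fell (median -0.32), and 8 replication-dependent genes rose while 4 fell (median 0.25, against 0.03 over all genes). The shares of replication-dependent genes called, 23.3%, 16.3% and 27.9%, lay below those of all tested genes, and most of these genes have low counts.

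Single libraries moved several of these counts. The replication-dependent genes rising with ipatasertib numbered 3 without ipatasertib A, and those falling 2. With tazemetostat, 2 rose without tazemetostat B, and 3 rose without DMSO C or without tazemetostat A. Falling replacement variants numbered 3 without DMSO A, DMSO B, tazemetostat B or tazemetostat C. Without tazemetostat A, 2 replacement variants rose and 2 replication-dependent genes fell. With library totals as the scale, tazemetostat gave 2 rising and 2 falling replacement variants, and over all genes 4573 higher and 2159 lower calls in place of 3775 and 3099.

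**Figure D2:**
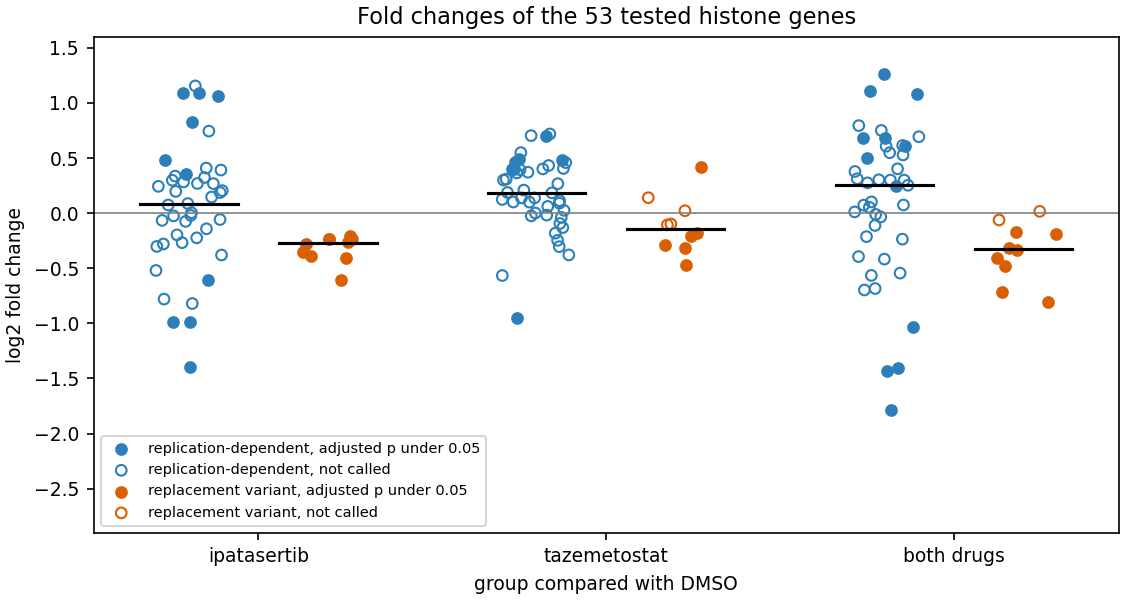
Log2 fold changes against DMSO (vertical axis) of the 43 tested replication-dependent genes (blue) and the 10 tested replacement variants (orange) for ipatasertib, tazemetostat and both drugs. Filled points have an edgeR adjusted p under 0.05, open points do not, and black lines are medians. The replacement variants lie below 0 with ipatasertib, all 10 of them, and the replication-dependent genes spread from -1.40 to 1.15.

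H2AFZ and H2AFX showed the largest falls among the replacement variants. H2AFZ encodes H2A.Z, a variant found at promoters. It was at 674, 680 and 748.5 CPM with DMSO, 435, 472 and 471 CPM with ipatasertib, 585, 549 and 551 CPM with tazemetostat, and 427, 426 and 429 CPM with both. All treated libraries were below all DMSO libraries, and those with both drugs were the lowest. It was 1.53-fold lower with ipatasertib (log2 -0.61, SE 0.06, edgeR adjusted p = 7.3e-08), 1.25-fold lower with tazemetostat (-0.32, SE 0.06, 2.4e-04) and 1.64-fold lower with both (-0.71, SE 0.06, 1.8e-09). H2AFX was at 102, 105 and 102 CPM with DMSO, 69.65, 83.05 and 80.5 CPM with ipatasertib, 72.8, 74.0 and 75.9 CPM with tazemetostat, and 64.0, 56.5 and 56.0 CPM with both. Each single drug lay below DMSO, and the combination lay below each single drug. Its log2 change was -0.41 (SE 0.07, edgeR adjusted p = 9.6e-05), -0.47 (SE 0.07, 1.7e-05) and -0.81 (SE 0.08, 4.8e-09), and both drugs together were below ipatasertib (-0.40, SE 0.08, 1.8e-04) and below tazemetostat (-0.33, SE 0.08, 0.0011).

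Of the macroH2A genes, H2AFY2 rose with tazemetostat and fell with ipatasertib, and H2AFY fell with ipatasertib. MacroH2A carries a large extra domain and is known from silent chromatin such as the inactive X. H2AFY2, which encodes macroH2A.2, was at 66.6, 67.6 and 70.4 CPM with DMSO, 60.3, 56.3 and 61.0 CPM with ipatasertib, 87.6, 94.3 and 91.8 CPM with tazemetostat, and 72.3, 66.7 and 67.7 CPM with both. Tazemetostat libraries were all the highest, ipatasertib libraries all the lowest, and the combination overlapped DMSO. It rose 1.34-fold with tazemetostat (log2 0.42, SE 0.07, edgeR adjusted p = 1.8e-05) and fell with ipatasertib (-0.20, SE 0.07, 0.0156). That fall was not called without DMSO C (0.0703) or ipatasertib B (0.0618), or with library totals as the scale (0.0586). With both drugs its log2 change was 0.02 (SE 0.07), and the interaction was -0.20 (SE 0.09, edgeR adjusted p = 0.159). H2AFY, which encodes macroH2A.1, was at 458, 470.5 and 470.6 CPM with DMSO, 347, 375 and 370.3 CPM with ipatasertib, 464, 413 and 429.6 CPM with tazemetostat, and 352, 352 and 350.4 CPM with both. Ipatasertib and combination libraries were all below DMSO, and tazemetostat overlapped it. It fell with ipatasertib (log2 -0.36, SE 0.06, edgeR adjusted p = 5.9e-05) and with both (-0.41, SE 0.06, 5.2e-06), while the tazemetostat value of -0.10 did not pass the test. Without tazemetostat A it was called lower (-0.16, edgeR adjusted p = 0.0350), as it was without library A of every group (0.0052).

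The other H2A variants moved less. H2AFV, a second H2A.Z gene, was at 429.8, 422 and 419.6 CPM with DMSO, 361.5, 367 and 354.5 CPM with ipatasertib, 386, 352 and 366 CPM with tazemetostat, and 331, 351 and 341 CPM with both. Every treated library was below DMSO, and it fell in the 3 comparisons (log2 -0.23, -0.21 and -0.31, SE 0.06 each, edgeR adjusted p = 0.0027, 0.0070 and 8.5e-05). With library totals the tazemetostat p was 0.0629. H2AFJ was at 121, 132 and 132 CPM with DMSO, 99.0, 112.5 and 116 CPM with ipatasertib, 117, 117 and 123 CPM with tazemetostat, and 114, 94.35 and 96.8 CPM with both. It fell with ipatasertib (log2 -0.23, SE 0.08, edgeR adjusted p = 0.0164) and with both (-0.33, SE 0.08, 7.3e-04), and its tazemetostat range overlapped DMSO. The ipatasertib call was lost without DMSO B (0.0592), DMSO C (0.0621) or ipatasertib A (0.0718).

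Linker histone variants fell with ipatasertib. H1F0 encodes H1.0, the linker histone that accumulates in cells that stop dividing. It was at 580.3, 571 and 645 CPM with DMSO, 459.7, 424 and 488 CPM with ipatasertib, 586, 702 and 692 CPM with tazemetostat, and 649.8, 542 and 529 CPM with both. Ipatasertib libraries were the lowest, and the other 3 groups overlapped. It fell 1.31-fold with ipatasertib (log2 -0.39, SE 0.08, edgeR adjusted p = 6.7e-04), and it was higher with both drugs than with ipatasertib alone (0.33, SE 0.08, 0.0032). Its tazemetostat change did not pass the test, but it was called higher with library totals (0.21, edgeR adjusted p = 0.0422), without tazemetostat A (0.0359) and without library A of every group (0.0055). In the last setting it was also called lower with both drugs (-0.185, 0.0072). H1FX, the gene of H1.X, was at 218, 239 and 251 CPM with DMSO, 184, 201 and 217 CPM with ipatasertib, 230.2, 239.6 and 249 CPM with tazemetostat, and 229, 199 and 193 CPM with both. It fell with ipatasertib (log2 -0.23, SE 0.08, edgeR adjusted p = 0.0163), a call lost without DMSO C (0.0925) or ipatasertib A (0.0678). It also fell with both (-0.19, SE 0.08, 0.0389), where the ranges overlap, and that call was lost with the library letter as a block (0.0639) and without DMSO B, DMSO C, combination B or combination C (0.0753 to 0.166).

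The H3.3 genes with reads, H3F3B and H3F3C, fell slightly. H3F3B was at 1167, 1200 and 1193 CPM with DMSO, 933, 1045 and 986 CPM with ipatasertib, 1167, 956 and 1023 CPM with tazemetostat, and 999.6, 1097 and 1061 CPM with both. Ipatasertib and combination libraries were all below DMSO, and tazemetostat A was level with DMSO A. It fell with ipatasertib (log2 -0.26, SE 0.07, edgeR adjusted p = 0.0039), with tazemetostat (-0.18, SE 0.07, 0.0422) and with both (-0.17, SE 0.07, 0.0371). The last 2 calls were lost with the library letter as a block (0.0775 and 0.0659) and without any of several libraries: DMSO A, B or C, tazemetostat B or C for tazemetostat (0.0639 to 0.152), and DMSO A, B or C, combination A or C for both (0.0525 to 0.109). H3F3C, a gene for the H3.3-like H3.5 that shares 21.8% of its 50-base stretches with H3F3B among others, was at 6.75 to 10.5 CPM. Its log2 changes were -0.28 (SE 0.11, edgeR adjusted p = 0.0467), -0.29 (SE 0.11, 0.0384) and -0.48 (SE 0.12, 0.0015). With the letter as a block the first 2 were lost (0.0685 and 0.0569). Without DMSO A, DMSO B, ipatasertib A or ipatasertib B the ipatasertib p was 0.0565 to 0.138, and without DMSO A, DMSO B, tazemetostat B or tazemetostat C the tazemetostat p was 0.0956 to 0.132.

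**Figure D3:**
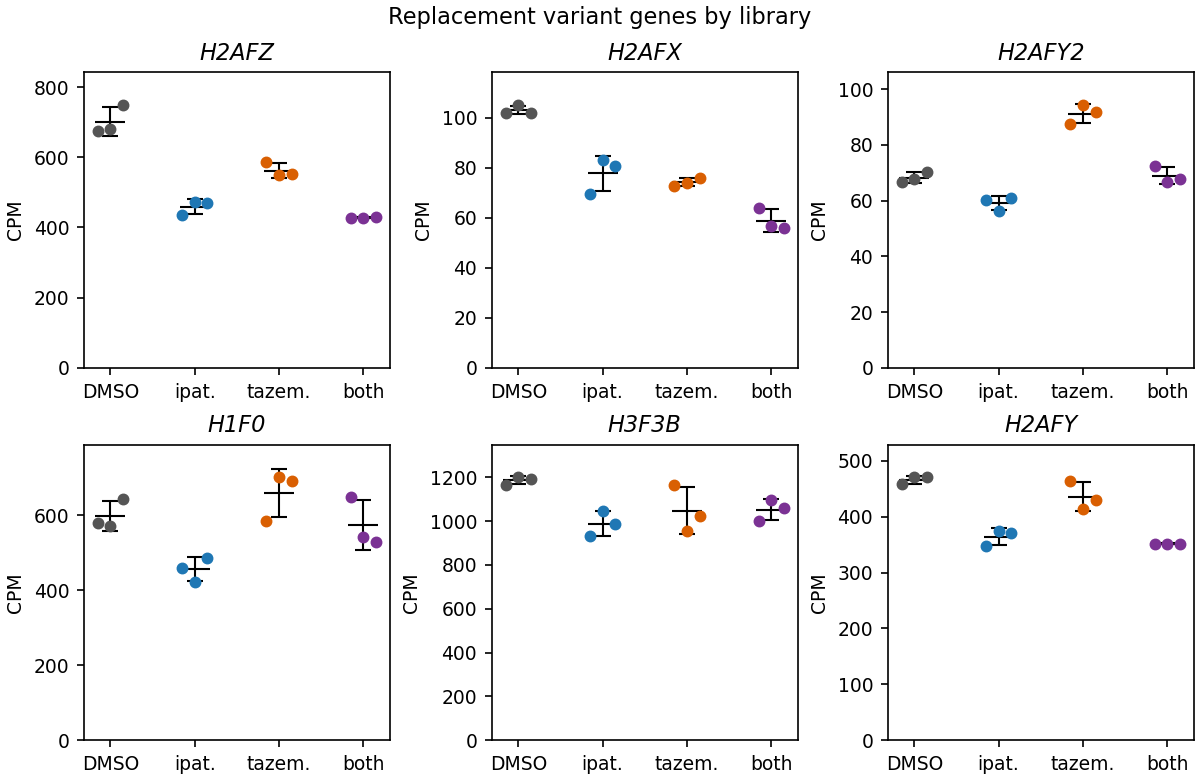
Levels in CPM (vertical axes, each from 0) of 6 replacement variant genes in the 4 groups. Points are libraries A, B and C from left to right, and bars give mean and SD (n = 3). H2AFZ and H2AFX are lower in every treated library, H2AFY2 is highest with tazemetostat, and H1F0 is lowest with ipatasertib.

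Among replication-dependent genes known to be polyadenylated, 3 of 5 rose with tazemetostat and 4 of 5 with both drugs, and 1 of 5 rose with ipatasertib (medians 0.40, 0.50 and 0.19). The 38 other tested genes had medians of 0.16, 0.18 and 0.05, with 3 rising and 1 falling, 4 and 4, and 5 and 4. Over all tested genes 25.9%, 34.4% and 24% rose, in the same order. The 5 genes stand at ranks 1, 2, 3, 4 and 6 in mean CPM among the replication-dependent genes. The 2 sets therefore differ in counts as well, and the part of the poly(A) tail was not tested. HIST1H1C, the gene of linker histone H1.2, was at 25.9, 30.7 and 29.97 CPM with DMSO, 30.5, 32.9 and 35.0 CPM with ipatasertib, 40.9, 38.9 and 39.5 CPM with tazemetostat, and 49.5, 47.7 and 41.5 CPM with both. The tazemetostat and combination libraries were all above DMSO and ipatasertib libraries, and ipatasertib overlapped DMSO. It rose 1.38-fold with tazemetostat (log2 0.46, SE 0.08, edgeR adjusted p = 1.2e-04) and 1.61-fold with both (0.68, SE 0.09, 4.5e-07). With ipatasertib alone its change of 0.19 had an adjusted p of 0.0783, which became 0.0282 with library totals and 0.0398 in a fit of those 2 groups alone.

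HIST1H2AC was at 19.1, 15.6 and 14.6 CPM with DMSO, 18.3, 18.6 and 19.6 CPM with ipatasertib, 23.6, 22.1 and 23.1 CPM with tazemetostat, and 20.6, 22.45 and 27.0 CPM with both. The tazemetostat and combination libraries were all above the DMSO libraries. It encodes a canonical H2A, and its models reach over 1000 bases past the stem-loop. It rose with tazemetostat (log2 0.48, SE 0.10, edgeR adjusted p = 6.7e-04) and with both (0.50, SE 0.11, 3.3e-04), and its ipatasertib value of 0.20 had an adjusted p of 0.132, or 0.0227 without DMSO A.

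HIST2H2BE, an H2B gene whose model runs 1729 bases past the stem-loop, was at 4.08, 5.31 and 4.96 CPM with DMSO. It was at 6.45, 5.98 and 5.80 CPM with ipatasertib, 6.34, 6.39 and 6.07 CPM with tazemetostat, and 6.815, 7.58 and 8.64 CPM with both. All treated libraries were above DMSO, and the combination libraries were the highest. Its log2 changes were 0.35 (SE 0.13, edgeR adjusted p = 0.0278), 0.40 (SE 0.13, 0.0132) and 0.68 (SE 0.13, 9.8e-05). The ipatasertib call was lost without DMSO A, ipatasertib A or ipatasertib B (0.0566 to 0.169) and with DESeq2 (0.0540), and the tazemetostat call without DMSO A (0.0968) or tazemetostat B (0.0549).

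The other 2 changed little. HIST1H2BD was at 29.7, 32.75 and 31.2 CPM with DMSO, 23.5, 29.3 and 28.9 CPM with ipatasertib, 36.1, 31.45 and 35.5 CPM with tazemetostat, and 37.0, 36.9 and 37.2 CPM with both. It rose with both (log2 0.25, SE 0.09, edgeR adjusted p = 0.0172), a call lost without DMSO A (0.0774) or DMSO C (0.0534). With ipatasertib its change was -0.20 (0.0683), and it was called lower there without ipatasertib B (0.0355), ipatasertib C (0.0410), tazemetostat A (0.0306), tazemetostat B (0.0422) or combination B (0.0477). HIST1H2BK was at 83.4 to 99.0 CPM in the 12 libraries, the groups overlapped, and its log2 changes of 0.07, 0.00 and -0.03 (SE 0.07 each) did not pass the test. These 2 H2B genes make up most of the H2B counts.

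HIST3H2A, an H2A gene of the small cluster on chromosome 1, rose with ipatasertib whether or not tazemetostat was present. It was at 7.485, 8.95 and 8.11 CPM with DMSO, 14.9, 16.7 and 20.15 CPM with ipatasertib, 8.12, 8.29 and 10.2 CPM with tazemetostat, and 18.45, 16 and 18.2 CPM with both, from 155 to 511 counts per library. The 6 libraries with ipatasertib were all above the 6 without it. It was 2.12-fold higher with ipatasertib (log2 1.09, SE 0.12, edgeR adjusted p = 2.0e-07) and 2.16-fold higher with both (1.11, SE 0.12, 6.7e-08), and both drugs stood above tazemetostat alone by 0.99 (SE 0.12). The tazemetostat value was 0.12, and the interaction was -0.10 (SE 0.17, edgeR adjusted p = 0.735). Its head-to-head neighbour HIST3H2BB had 4 to 11 counts per library (0.208 to 0.576 CPM) and a log2 change of 0.27 with ipatasertib (SE 0.45), so that a rise of the same size was not resolved at this depth.

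**Figure D4:**
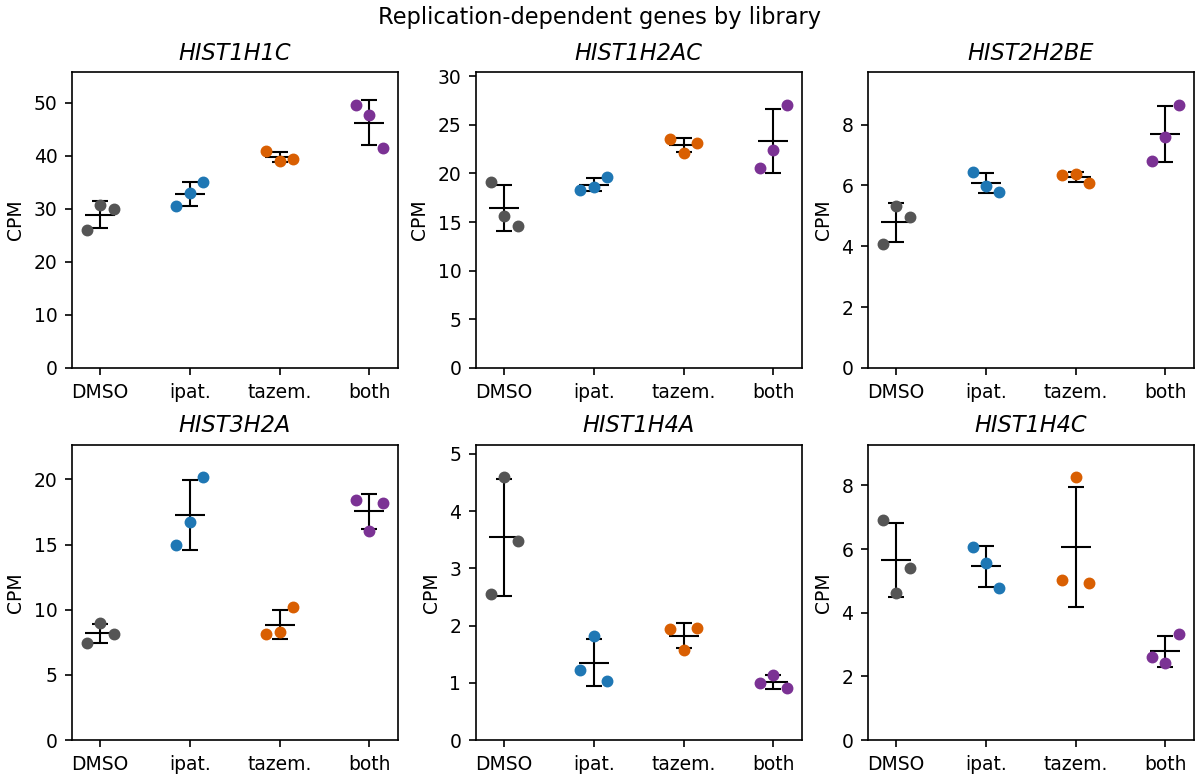
Levels in CPM (vertical axes, each from 0) of 6 replication-dependent genes in the 4 groups. Points are libraries A, B and C from left to right, and bars give mean and SD (n = 3). HIST3H2A is high in the 6 libraries with ipatasertib, HIST1H1C is higher with tazemetostat and with both drugs, HIST1H4A is lower in every treated library, and HIST1H4C is lower only in the combination libraries.

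Replication-dependent H3 genes had 2 of 8 tested members rising with ipatasertib, 1 with tazemetostat and 2 with both, and 1 falling with ipatasertib. The shares called, 37.5%, 12.5% and 25%, lay below the 47.1%, 47.2% and 64.4% of all tested genes. HIST1H3E was at 1.525, 1.59 and 1.11 CPM with DMSO, 2.61, 2.19 and 2.60 CPM with ipatasertib, 1.68, 1.79 and 2.08 CPM with tazemetostat, and 2.49, 3.03 and 3.48 CPM with both. All treated libraries lay above DMSO. It rose with ipatasertib (log2 0.82, SE 0.19, edgeR adjusted p = 0.0014) and with both (1.08, SE 0.20, 7.4e-05). HIST1H3H was at 2.52, 2.59 and 2.30 CPM with DMSO and at 2.94 to 4.93 CPM in the 9 treated libraries, all above DMSO. It rose in the 3 comparisons (log2 0.48, 0.49 and 0.61, SE 0.17, 0.17 and 0.18, edgeR adjusted p = 0.0284, 0.0241 and 0.0067). The ipatasertib call was lost without DMSO A, DMSO C, ipatasertib A or ipatasertib C (0.0563 to 0.153) and with DESeq2 (0.0515), the tazemetostat call without DMSO C, tazemetostat A or tazemetostat B (0.0625 to 0.105), and the combination call without combination B (0.0970). HIST1H3G was at 1.10, 1.59 and 1.78 CPM with DMSO, 0.566, 0.694 and 0.946 CPM with ipatasertib, 1.62, 1.72 and 1.29 CPM with tazemetostat, and 1.55, 1.82 and 1.32 CPM with both. Only the ipatasertib libraries lay below DMSO. It fell with ipatasertib (log2 -0.99, SE 0.27, edgeR adjusted p = 0.0041), and both drugs stood above ipatasertib alone (1.06, SE 0.29, 0.0048).

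Histone H4 is encoded by many genes for the same protein, and these did not move together. HIST1H4A was at 2.55, 4.59 and 3.48 CPM with DMSO, 1.22, 1.815 and 1.025 CPM with ipatasertib, 1.94, 1.57 and 1.95 CPM with tazemetostat, and 0.997, 1.14 and 0.906 CPM with both, on 13 to 101 counts per library. All treated libraries were below DMSO. It was 2.64-fold lower with ipatasertib (log2 -1.40, SE 0.23, edgeR adjusted p = 3.1e-05), 1.93-fold lower with tazemetostat (-0.95, SE 0.21, 9.0e-04) and 3.45-fold lower with both (-1.79, SE 0.26, 4.2e-06). HIST1H4H was at 4.33, 5.22 and 4.74 CPM with DMSO, 2.18, 3.74 and 3.47 CPM with ipatasertib, 4.61, 3.66 and 3.37 CPM with tazemetostat, and 4.21, 2.65 and 3.62 CPM with both. It fell with ipatasertib (log2 -0.61, SE 0.18, edgeR adjusted p = 0.0086), a call lost without ipatasertib A (0.0669). With both drugs its value was -0.42 (0.0613), and it was called lower without ipatasertib A, B or C, tazemetostat A, B or C, or combination A (0.0253 to 0.0460). HIST1H4K, whose 50-base stretches all occur in HIST1H4J too, was at 0.227 to 1.13 CPM on 5 to 26 counts, and rose with ipatasertib (1.06, SE 0.41, 0.0358) and with both (1.26, SE 0.43, 0.0134). The first call was lost without DMSO A, DMSO B or ipatasertib A (0.0667 to 0.291), the second without DMSO B (0.0534) or combination C (0.0726).

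HIST1H4C was the 1 histone gene with an interaction past the threshold, where 12% of all tested genes passed (5.96% upward and 6.01% downward, or 869 and 875 genes, and 694 and 1369 with library totals). It was at 6.92, 4.63 and 5.41 CPM with DMSO, 6.055, 5.55 and 4.77 CPM with ipatasertib, 5.03, 8.25 and 4.95 CPM with tazemetostat, and 2.60, 2.43 and 3.34 CPM with both, on 32 to 221 counts per library. The 3 combination libraries were below the other 9, which overlapped. It was 2.04-fold lower with both than with DMSO (log2 -1.03, SE 0.22, edgeR adjusted p = 3.1e-04), lower than with ipatasertib (-0.96, SE 0.22, 0.0013) and lower than with tazemetostat (-1.14, SE 0.22, 2.0e-04), and the single drugs gave -0.07 and 0.11. The interaction, the combined effect beyond both single effects added up, was -1.08 (SE 0.29, edgeR adjusted p = 0.0202). Without DMSO B, DMSO C, ipatasertib A, tazemetostat B or combination B its p was 0.0517, 0.0555, 0.0620, 0.0750 and 0.0715, so that no histone gene was called lower there. Higher interactions numbered 0, and 1, 3 and 1 without DMSO A, tazemetostat A and combination A.

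The remaining calls rested on few counts. HIST1H1B, the gene of the linker histone H1.5, was at 0.993, 1.499 and 0.963 CPM with DMSO, 0.523, 0.6405 and 0.552 CPM with ipatasertib, 0.838, 1.31 and 0.665 CPM with tazemetostat, and 0.277, 0.152 and 0.836 CPM with both (2 to 35 counts). It fell with ipatasertib (log2 -0.99, SE 0.35, edgeR adjusted p = 0.0242) and with both (-1.43, SE 0.42, 0.0051), and the first call was lost without DMSO B, ipatasertib A or ipatasertib C (0.0652 to 0.114). HIST1H2AI and HIST1H2AJ share 62.3% and 83.7% of their 50-base stretches with other genes, mostly each other. HIST1H2AI rose with ipatasertib (1.09, SE 0.28, 0.0026, 9 to 35 counts), a call lost without library A of every group (0.0544), and HIST1H2AJ fell with both (-1.40, SE 0.45, 0.0100, 2 to 15 counts), a call lost without combination A (0.0826). With tazemetostat HIST1H2BJ rose (0.40, SE 0.15, 0.0327), a call lost without DMSO B, DMSO C or any tazemetostat library (0.0585 to 0.127) and with DESeq2 (0.0986). HIST1H2BG rose as well (0.70, SE 0.25, 0.0278), with ranges that overlap, and was not called without DMSO A, DMSO C, tazemetostat A or tazemetostat B (0.0645 to 0.253) or with DESeq2 (0.0548). The other abundant members HIST1H2BH and HIST1H2BC had log2 changes of -0.07 and 0.00 with ipatasertib, 0.27 and -0.09 with tazemetostat, and 0.25 and 0.30 with both, none past the test.

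Set directly against ipatasertib, the combination changed 44.9% of all tested genes (24.2% upward, 20.7% downward) and raised 8 of 53 tested histone genes while lowering 2. The 8 were H1F0, H2AFY2, HIST1H1C, HIST1H1D, HIST1H2AC, HIST1H2BD, HIST1H3G and HIST2H2BE, and the 2 were H2AFX and HIST1H4C. HIST1H1C was 0.50 higher on the log2 scale (SE 0.09, edgeR adjusted p = 6.7e-05) and HIST1H2BD 0.45 higher (SE 0.09, 3.2e-04). HIST1H1D, the gene of H1.3, was 1.47 higher (SE 0.46, 0.0114) on 3 to 12 counts, not called without ipatasertib C (0.0744). The count of 8 became 5 without ipatasertib B: H2AFY2 (0.0926), HIST1H2AC (0.0781) and HIST2H2BE (0.102) were then not called. HIST1H2AC was also lost without ipatasertib A (0.0848) or combination C (0.203). HIST2H2BE (0.33, SE 0.13, 0.0405) was also lost without DMSO C, ipatasertib C, tazemetostat B or C, or combination B or C (0.0547 to 0.199), with DESeq2 (0.0707) and with the letter as a block (0.0573).

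Set against tazemetostat, the combination changed 46.3% of all tested genes (23.2% upward, 23.1% downward), raised 4 of 53 histone genes and lowered 10. HIST3H2A, HIST1H3E, HIST1H1C and HIST1H2BC were the 4 that rose. HIST1H1C (log2 0.22, SE 0.09, edgeR adjusted p = 0.0378) and HIST1H2BC (0.40, SE 0.16, 0.0470) lost the call with the letter as a block (0.0629 and 0.0540). HIST1H1C was also lost without DMSO B or C, ipatasertib B, tazemetostat B or C, or combination A or B (0.0541 to 0.142), and HIST1H2BC without any DMSO library, ipatasertib A or B, tazemetostat B or C, or combination A or B (0.0540 to 0.253). HIST1H3E was lost without combination C (0.0504). The count was 2 without DMSO B, DMSO C, ipatasertib B or tazemetostat C. The 10 that fell were H2AFZ (-0.40, SE 0.06, 2.4e-05), H2AFY2 (-0.40, SE 0.07, 3.8e-05), H2AFX, H2AFY, H2AFJ, H1FX, HIST1H4C, HIST1H4A, HIST1H2BJ and HIST1H1B. H1FX (0.0313) was not called with the letter as a block (0.0540). It was also lost without tazemetostat C, combination B or combination C (0.0915 to 0.142), and so was H2AFJ (0.0602 to 0.0883). HIST1H4A was lost without tazemetostat C, combination A or combination C (0.0624 to 0.0781), HIST1H1B without tazemetostat B, combination A or combination B (0.138 to 0.176), and HIST1H2BJ without combination A (0.0659).

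The genes that make, cut and carry histone mRNA and protein moved as follows. SLBP was at 122, 116 and 126.5 CPM with DMSO, 94.9, 99.0 and 97.0 CPM with ipatasertib, 98.6, 87.5 and 90.9 CPM with tazemetostat, and 66.3, 75.2 and 70.2 CPM with both. Each single drug lay below DMSO, and the combination lay below each. It fell in the 3 comparisons (log2 -0.33, -0.40 and -0.79, SE 0.07 each, edgeR adjusted p = 4.1e-04, 5.1e-05 and 1.9e-09). LSM10, part of the U7 particle that cuts histone mRNA beside the stem-loop, fell as well (-0.56, -0.35 and -0.91), while its partner LSM11 and the histone gene transcription factor NPAT did not pass the test in any of the 3 comparisons with DMSO. ZNF473 rose with ipatasertib, from 20.1 to 21.1 CPM with DMSO to 22.1 to 25.4 CPM. That call was lost with DESeq2 (0.0575), with the letter as a block (0.0648) and without any of several libraries (0.052 to 0.205). CASP8AP2 fell with both drugs, with ranges that overlap (69.7 to 71.3 and 54.6 to 70.3 CPM). That call was lost without DMSO B, DMSO C, combination A or combination C (0.0525 to 0.162). Of 33 tested genes of histone transcription and 3′ processing, 8 rose and 14 fell with ipatasertib (median -0.15), 2 and 10 with tazemetostat (-0.09), and 4 and 18 with both (-0.22). The shares called were 66.7%, 36.4% and 66.7%, against 47.1%, 47.2% and 64.4% of all tested genes.

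Of 34 tested histone chaperone and deposition genes, 6 rose and 15 fell with ipatasertib, 2 and 18 with tazemetostat, and 3 and 24 with both (medians -0.14, -0.20 and -0.39), shares of 61.8%, 58.8% and 79.4%. ASF1B, a chaperone of new H3 and H4, had log2 changes of -0.45, -0.49 and -1.11, and CHAF1A, a subunit of the replication-coupled factor CAF-1, of -0.45, -0.35 and -1.04, all 6 past the test. Its partner CHAF1B and the H3 chaperone NASP fell in the 3 comparisons too (-0.25, -0.19 and -0.58 for CHAF1B, and -0.23, -0.35 and -0.63 for NASP). The CHAF1B call with tazemetostat (edgeR adjusted p = 0.0303) was lost without DMSO A, DMSO C or tazemetostat C (0.0753 to 0.113). HIRA, which deposits H3.3 outside replication, and DAXX, another H3.3 chaperone, fell with both drugs (-0.41 and -0.37), and their single-drug changes against DMSO did not pass the test. ANP32E, which removes H2A.Z, fell by 0.75, 0.55 and 0.63 on the log2 scale in the comparisons in which H2AFZ fell by 0.61, 0.32 and 0.71. Of 42 S phase genes, 33 fell and 1 rose with ipatasertib, 25 and 2 with tazemetostat, and 40 and 0 with both (medians -0.40, -0.22 and -0.72), shares of 81%, 64.3% and 95.2%. MCM2, CCNE1 and CCNE2 stand on more than 1 of these lists.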

How the data were processed

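For each of 12 libraries the authors deposited raw counts of reads by gene symbol. The submitters' processing notes name hg19 as build and STAR, HTSeq, SAMtools and DESeq2 as tools, with no versions. Annotation and strand setting were not given in the sources used here. Overlapping and antisense reads could be shared between genes. Per the labels' protocols, RNA came from RNeasy Plus and libraries from Kapa Hyper Prep. Poly(A) selection lowers transcripts without a tail, and the files list reads placed at more than 1 site apart from genes, which removes reads of near-identical histone copies. Closing lines that name no gene stayed out of totals and tests; genes held 60.5% to 68.0% of the counted total. A deposited table of normalized values was not used here.

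Genes that passed filterByExpr (minimum count 10) were scaled by TMM and fitted in edgeR 4.0.16 (R 4.3.3), with a mean per group in a single model of the 12 libraries that left 8 residual degrees of freedom. Each contrast was tested by robust quasi-likelihood, and p-values were adjusted (Benjamini-Hochberg) over 14571 genes with a threshold of 0.05. CPM uses TMM-scaled totals; SE is the log2 change divided by the square root of F. DESeq2 1.42.0 and the other settings of the closing section are alternatives. The procedure was also run on simulated data without a shift of library A, and no result of that run is given here. The floor of 3 counts covers counting error only, whereas SE and SD include the spread between libraries.

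Named genes were the tested replacement variants, the 12 replication-dependent genes highest in CPM, 5 known to be polyadenylated, the 4 largest rises and falls against DMSO among called genes (non-overlapping libraries, at least 1 CPM), and 17 pathway genes. Other called members were named after their values were seen. The members and lists were chosen with earlier results of these data known. Stem-loops, poly(A) signals and shared 50-base stretches come from GENCODE v29 and promoters from RefSeq, both on GRCh38, another build than the counts.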

Additional observations from a re-analysis of the deposited data

Results flagged for a closer look

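In 6 of 44 named genes tested (13.6%, against 12% of all tested genes) the effect of ipatasertib differed between cells with and without tazemetostat by the interaction test (edgeR adjusted p under 0.05). HIST1H4C is described above, with a difference of -1.076 on the log2 scale (adjusted p = 0.0202). The other 5 are named genes of the chaperone list, in which 10 of 34 tested members had a higher and 6 a lower interaction. Their differences were positive: ANP32E 0.663 (SE 0.10, 6.3e-04), ATRX 0.609 (SE 0.14, 0.0107), ASF1A 0.52 (SE 0.13, 0.0152), CENPA 0.429 (SE 0.10, 0.0118) and HJURP 0.303 (SE 0.10, 0.0482).

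ANP32E was at 358, 377 and 390.3 CPM with DMSO, 217, 232 and 222 with ipatasertib, 274, 236 and 259.8 with tazemetostat, and 223, 262 and 241 with both, so that the combination lay within or beside the single-drug ranges. ATRX, a remodeller that works with DAXX, was at 303 to 398 CPM with both drugs and 308 to 355 CPM with DMSO. CENPA, the centromeric H3, and its chaperone HJURP were at 55.4 to 63.9 and 52.3 to 54.8 CPM with both drugs. The ASF1A call was lost without DMSO C (0.0537). The HJURP call was lost with library totals, with no filter, with the letter as a block (0.0902) and without DMSO A, B or C, ipatasertib A, B or C, tazemetostat B or C, or combination B or C (0.0653 to 0.152).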

How the results depend on the processing

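Results were recomputed with RLE factors, library totals, DESeq2, no filter on low counts, a minimum of 50 counts in 3 libraries, a fit of the compared groups by themselves, a replicate block by letter, every library omitted in turn, and library A left out of every group. Of 134 named changes that passed the test, none changed direction: 2460 recomputed values stayed past the threshold and 201 did not. Of 32 named changes that did not pass, 31 recomputed values passed, and 53 changed sign without passing.

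Replication-dependent genes rising with ipatasertib numbered 3 with DESeq2 and 3 without library A of every group, and with 1 library left out 3 to 7. Those falling numbered 2 with the 50-count filter, and 2 to 5 with 1 library left out. With tazemetostat, replication-dependent genes rising numbered 2 to 7 and those falling 1 to 2 with 1 library left out, and 2 fell without library A of every group. Replacement variants rising numbered 2 with library totals, 2 without library A of every group, and 1 to 2 with 1 library left out. Replacement variants falling numbered 2 with library totals, 3 with the replicate block and 3 to 6 with 1 library left out. With both drugs 2 replication-dependent genes fell under the 50-count filter. With 1 library left out, replacement variants falling numbered 7 to 10 with ipatasertib and 6 to 8 with both drugs. Against ipatasertib the combination raised 5 to 9 histone genes with 1 library left out, and lowered 6 without library A of every group. Against tazemetostat it raised 2 with no filter, 2 with the 2 groups alone, 2 with the replicate block and 2 to 4 with 1 library left out. Higher interactions numbered 1 with DESeq2, 1 with no filter, 3 without library A of every group and 0 to 3 with 1 library left out, and lower ones 2 without library A of every group and 0 to 1 with 1 library left out. The filter of 50 counts tests fewer genes, and leaving libraries out uses fewer samples. The cause of the other shifts was not tested.

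The ratio of the replication-dependent sum to DMSO was 1.117 with ipatasertib without the 5 genes known to be polyadenylated. With tazemetostat it was 1.165 with library totals, 1.175 without HIST1H2BK and 1.056 without the 5 genes, and with both drugs 1.216, 1.28 and 1.124.

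Signs that changed belonged to log2 values that did not pass the test in either setting. With ipatasertib HIST1H2BC was -0.004 with RLE factors, -0.002 with DESeq2, -0.004 with no filter, -0.029 without library A of every group and -0.084 to 0.098 with 1 library left out, HIST1H4C was 0.02 without library A of every group and -0.186 to 0.109 with 1 left out, and HIST1H2BH was -0.325 to 0.045. With tazemetostat HIST1H2BK was -0.009 with RLE factors, -0.009 with DESeq2, -0.013 with no filter, -0.033 without library A of every group and -0.039 to 0.035 with 1 left out. H1FX was -0.005 without library A of every group and -0.034 to 0.064 with 1 left out, and HIST1H3G was -0.161 and -0.131 to 0.218. HIST3H2A was -0.011 to 0.183 and HIST1H4C -0.21 to 0.286 with 1 left out. With both drugs H2AFY2 was -0.018 with no filter, -0.04 without library A of every group and -0.022 to 0.027 with 1 left out. HIST1H2BK was 0.027 with library totals, HIST1H2BJ was 0.017 without library A of every group, and HIST1H3G was -0.114 without it and -0.119 to 0.223 with 1 left out.

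Same-letter libraries deviated together by more than 0.1 (correlation of deviations from group means) in 1 of 3 pairs for ipatasertib and DMSO over all 14571 tested genes (where 3 of 3 matched their own letter best), and in 3 of 3 over 9762 genes of at least 10 CPM, where 1 of 3 did so. The other comparisons had no such set of 3, and the labels tie no letter to a culture or day. With the replicate block, 9 histone gene calls were lost and are given with the genes above. Low counts kept 20 replication-dependent genes with reads out of the tests, and 3 counts come to 0.228 CPM in the shallowest library.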
